A study of Mus musculus with 12 samples.

Results

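Transcripts of 9 ligands of the tumour necrosis factor (TNF) superfamily were followed in T cells sorted from mouse thymus: Lta, Ltb, Tnf, Tnfsf14 (LIGHT), Tnfsf11 (RANKL), Cd40lg, Tnfsf8 (CD30 ligand), Tnfsf10 (TRAIL) and Fasl. The ligands were chosen by name, as genes of one family that includes the ligands known to act on thymic epithelium. Earlier results of these data were known at that point, so the counts of ligands called below are a description. All 9 were among the 55450 genes of the deposited table. All 9 also passed the filter on low counts that kept 15361 genes for testing. All mice were CD4-Cre x Foxp3-GFP: Cre is driven by the CD4 promoter, and green fluorescence reports Foxp3, the transcription factor of regulatory T cells (Tregs). The sort gave 3 populations with 4 libraries each: Eos+ Tregs, which were CD4+Foxp3+ and carried both Ccr6 and Cxcr4; Eos- Tregs, which were CD4+Foxp3+ and carried neither; and CD4+Foxp3- conventional T cells (Tconv). The title of the series places the question in Eos, a transcription factor of the Ikaros family, and in Tregs that return to the thymus from the periphery. No age or treatment of the mice is given in the labels, nor whether libraries of a group came from separate animals, so the p-values rest on spread among libraries, part of which may be technical.

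Ligands of this family are made as trimers on the cell surface, and most can be cut off as soluble factors. They bind receptors that recruit TRAF adaptors and activate NF-kB, or that carry a death domain and trigger caspases. In the thymus, RANKL, CD40 ligand and lymphotoxin from T cells and lymphoid tissue inducer cells drive the growth and maturation of medullary epithelial cells, which present tissue antigens to developing T cells.

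The libraries held 23.9 M to 37.9 M expected counts each. Values below are CPM (read counts scaled to a common total, here with TMM factors), in the order of the library numbers 1 to 4, and as mean ± SD with n = 4. Fold changes and adjusted p-values are from edgeR, in 1 fit over all 12 libraries with a threshold of 0.05. The 3 libraries of a number tended to deviate together, but this fit did not pair them. In all 3 populations, numbers 1 and 3 were male by Ddx3y, a Y-linked gene (119.7 to 187 CPM, with Xist at most 0.559 CPM). Numbers 2 and 4 were female by Xist, the transcript of the inactive X chromosome (38.8 to 150.4 CPM, with Ddx3y at 0). Each group thus mixed male and female material, so its libraries did not all come from the same animal. Sex is part of the spread within groups. The Treg libraries numbered 1 stood apart: Foxp3 was 55.0 CPM in Eos+ Tregs and 53.3 CPM in Eos- Tregs there, against 485 to 862 CPM in the other 6 Treg libraries and at most 3.42 CPM in Tconv. On the second principal component, Eos- Treg library 1 lay at -19.4 and the other Eos- Treg libraries at 60.7 to 84.8. Results that changed without the Treg libraries numbered 1 are given both ways. As a check of the sort, 10 CD4 T cell markers summed to 7725 to 8667 CPM in Eos+ Tregs, 9173 to 10172 CPM in Eos- Tregs and 11244 to 12179 CPM in Tconv, and 7 Treg markers to 2261 to 4659 CPM in Tregs against 317 to 430 CPM in Tconv. Among the Treg markers, Ikzf4, the gene of Eos, averaged 314 CPM in Eos+ Tregs, 171 CPM in Eos- Tregs and 25.3 CPM in Tconv. It was 1.84-fold higher in Eos+ than in Eos- Tregs (adjusted p = 2.29e-05 by edgeR) and 6.76-fold higher in Eos- Tregs than in Tconv (adjusted p = 2.79e-09). Eos- Tregs thus held Eos transcripts despite their name. The CD4 T cell marker sums did not overlap between groups. Of the 10, 4 were lower in Eos+ than in Eos- Tregs, where 6.45% of all genes tested were lower. In Eos+ Tregs, 8 were lower than in Tconv (13% of all genes). In Eos- Tregs, 4 were lower and 1 higher than in Tconv (5.89% and 8.76% of all genes). These sums have the order of Cd40lg and the reverse of that of Ltb and Tnfsf8, and their part in the ligand differences was not tested.

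Ltb, Tnf and Lta are neighbours. On chromosome 17 of GRCm38 (the mm10 genome), Ltb (ENSMUSG00000024399.5) occupies 35194439 to 35196320 on the plus strand, Tnf (ENSMUSG00000024401.14) 35199381 to 35202007 on the minus strand and Lta (ENSMUSG00000024402.5) 35203165 to 35205351 on the minus strand, with 3060 bp between Ltb and Tnf and 1157 bp between Tnf and Lta. Their transcripts followed 3 different patterns, described below, so the bases just upstream of each first annotated exon are shown, with those of Tnfsf14, whose level varied widely within groups. They are from RefSeq (GRCm38.p6), 5′ to 3′ on the strand of the gene. Capitals mark matches to an NF-kB decamer in Ltb, to the TATA box TATAAA in Tnf and Lta, and to the AP-1 site TGANTCA in Tnfsf14.
Ltb, chr17:35194257-35194438, plus strand: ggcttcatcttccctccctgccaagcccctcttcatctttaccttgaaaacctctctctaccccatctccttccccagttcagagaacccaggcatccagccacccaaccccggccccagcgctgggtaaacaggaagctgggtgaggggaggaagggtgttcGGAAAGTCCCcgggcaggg
Tnf, chr17:35202008-35202257, minus strand: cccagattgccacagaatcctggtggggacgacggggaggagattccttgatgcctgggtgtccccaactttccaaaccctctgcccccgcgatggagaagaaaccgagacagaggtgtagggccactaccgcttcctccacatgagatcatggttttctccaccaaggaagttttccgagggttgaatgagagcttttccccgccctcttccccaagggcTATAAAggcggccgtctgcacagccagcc
Lta, chr17:35205352-35205601, minus strand: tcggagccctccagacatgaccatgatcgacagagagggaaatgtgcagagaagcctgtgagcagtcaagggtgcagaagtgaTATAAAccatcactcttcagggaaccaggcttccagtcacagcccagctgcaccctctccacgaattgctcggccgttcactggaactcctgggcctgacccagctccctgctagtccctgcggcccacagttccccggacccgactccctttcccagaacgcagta
Tnfsf14, chr17:57194182-57194431, minus strand: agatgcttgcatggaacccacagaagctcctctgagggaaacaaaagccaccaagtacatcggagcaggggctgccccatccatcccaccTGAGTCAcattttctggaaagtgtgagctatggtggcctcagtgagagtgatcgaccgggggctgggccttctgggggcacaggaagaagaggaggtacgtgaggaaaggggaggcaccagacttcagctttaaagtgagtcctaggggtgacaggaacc
Positions are counted from the first transcribed base in RefSeq. For Ltb that base is 35194507, inside the GENCODE gene given above, and the printed stretch stops where the GENCODE exon begins. The Ltb decamer, on the opposite strand, lies at 35194420 to 35194429, or -87 to -78, the TATAAA of Tnf at -29 to -24, that of Lta at -167 to -162 and the AP-1 match of Tnfsf14 at -160 to -154. For every member, both strands of the whole 250 bases before the RefSeq start were searched for all 3 motifs, which do not overlap one another here. Of 32851 mouse promoters of that length, 7.25% hold the decamer, 6.75% the AP-1 site and 12.4% TATAAA. The table held 8 of the 9 members, all but Cd40lg. Tnfsf11 has 1 TATAAA match on the opposite strand, at -32 to -27, and the windows of Tnfsf8, Tnfsf10 and Fasl hold no match. A match describes letters, not binding.

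Between the 2 Treg populations, 6 of the 9 ligands were higher in Eos+ Tregs (Tnfsf8, Tnfsf10, Ltb, Tnfsf11, Tnf and Tnfsf14), 1 was lower (Cd40lg) and 2 did not pass the test (Lta and Fasl). Of all genes tested, 16.3% passed in this comparison, 9.82% as higher and 6.45% as lower. The median log2 fold change was 0.72 over the 9 ligands and 0.00 over all genes. Libraries of the 2 groups did not overlap for 4 of the 9 ligands (Tnfsf8, Tnfsf10, Tnfsf14 and Ltb), against 20% of all genes. The count fell to 6 of 9 without the Treg libraries numbered 1, where Tnfsf11 no longer passed (adjusted p = 0.0945), and to 3 of 9 when Tconv stayed out of the fit, which left Tnfsf8, Tnfsf10 and Ltb.

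Against Tconv, Eos+ Tregs were higher in Tnfsf8, Lta, Ltb and Tnfsf10 and lower in Cd40lg and Fasl, 6 of 9 ligands where 30.3% of all genes passed (17.3% higher, 13% lower). These same 6 ligands had groups that did not overlap, against 33.1% of all genes, and their median over 9 was 1.30 on the log2 scale against -0.01 for all genes. Eos- Tregs were higher than Tconv in Lta, Tnfsf8 and Ltb and lower in Cd40lg and Fasl, 5 of 9 ligands where 14.6% of all genes passed (8.76% higher, 5.89% lower). There the median was -0.47 over the ligands and -0.01 over all genes, and groups did not overlap for 6 ligands, the 5 called and Tnfsf11, against 20.1% of all genes. The 3 comparisons share libraries in pairs and are therefore not independent.

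**Figure D1:**
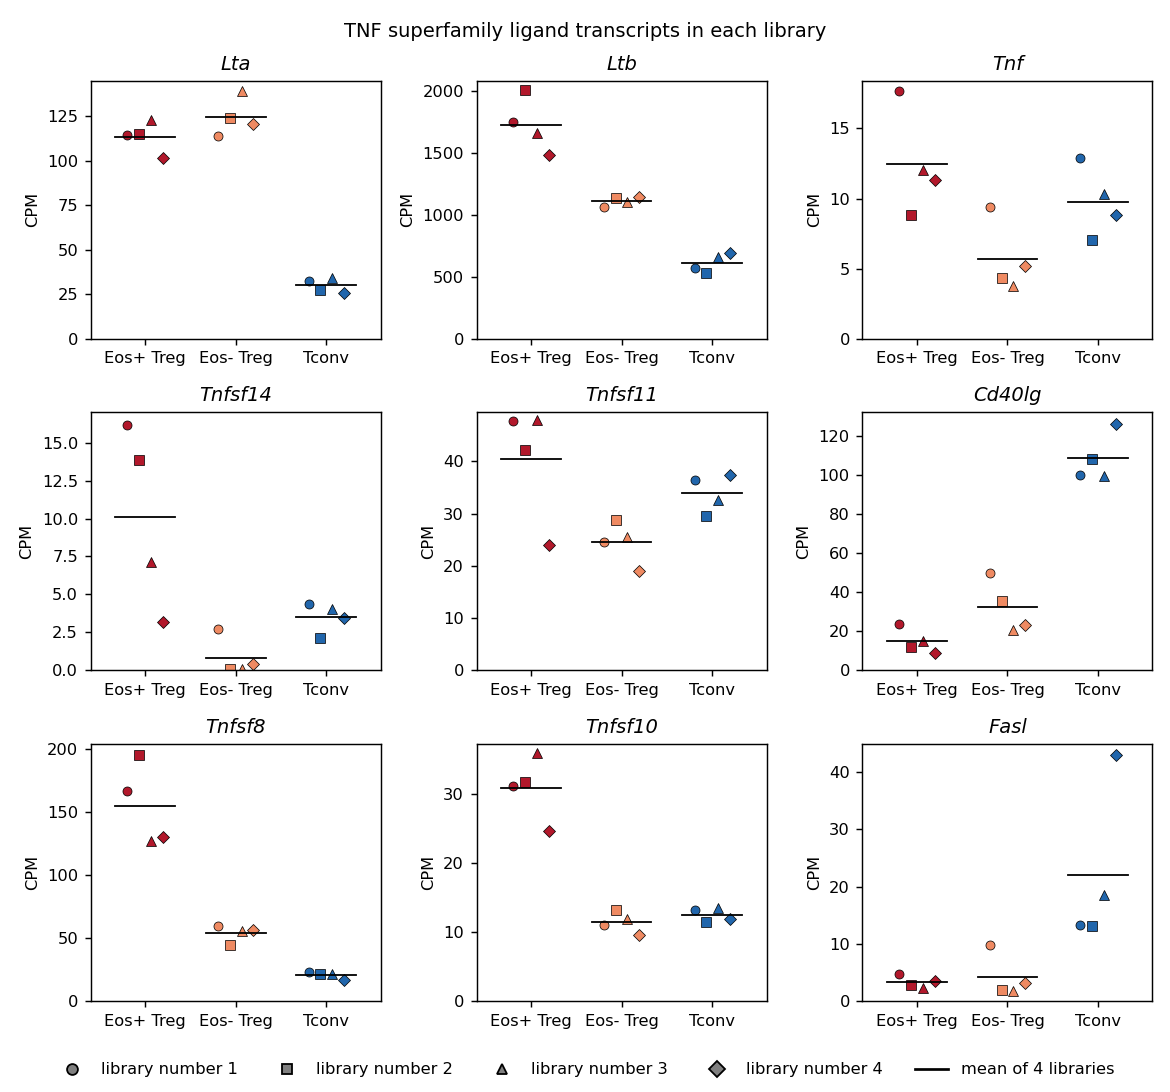
Level of each ligand in every library, in CPM on a linear axis from 0, with the symbol giving the library number and the bar the mean of 4 libraries. Lta is alike in both Treg groups and low in Tconv, Ltb and Tnfsf8 step down from Eos+ Tregs over Eos- Tregs to Tconv, Cd40lg steps up, and Fasl is highest in the 4 Tconv libraries.

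**Figure D2:**
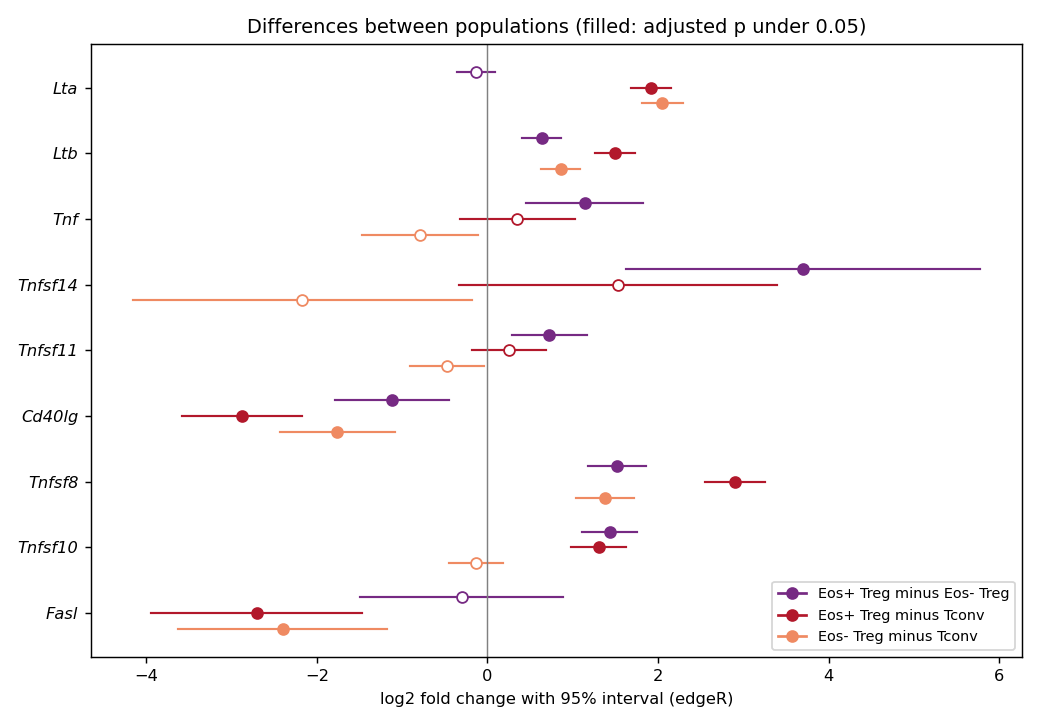
Log2 fold change of each ligand in the 3 comparisons with its 95% interval from edgeR; filled points passed an adjusted p of 0.05. The widest intervals are those of Tnfsf14 and Fasl, and those of Lta, Ltb, Tnfsf8 and Tnfsf10 are the narrowest.

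Lta encodes lymphotoxin alpha, which is secreted as a homotrimer that binds the TNF receptors and is anchored at the surface only with lymphotoxin beta. It was 114, 115, 123 and 101 CPM in Eos+ Tregs, 114, 124, 139 and 121 CPM in Eos- Tregs and 32.6, 27.5, 34.3 and 25.7 CPM in Tconv. All 8 Treg libraries lay above all 4 Tconv libraries, while the Treg groups overlapped. Lta was 3.78-fold higher in Eos+ Tregs than in Tconv (log2 1.92, SE 0.11, adjusted p = 8.55e-08 by edgeR) and 4.15-fold higher in Eos- Tregs (adjusted p = 1.99e-07). Between Eos+ and Eos- Tregs the log2 difference was -0.13, with a 95% interval of -0.36 to 0.09 (adjusted p = 0.449). In bulk samples such as these, fewer cells of a type and less RNA per cell cannot be told apart, for this and every ligand below.

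Ltb encodes lymphotoxin beta, the membrane-bound partner that lets lymphotoxin bind the lymphotoxin beta receptor on stromal and epithelial cells. Its CPM were 1749, 2007, 1657 and 1485 in Eos+ Tregs, 1063, 1132, 1101 and 1140.4 in Eos- Tregs and 568, 529, 659 and 693 in Tconv. No group overlapped another, and the order from Eos+ Tregs over Eos- Tregs to Tconv held in every library. The steps were 1.55-fold between the Treg groups (adjusted p = 0.00144 by edgeR) and 1.81-fold from Tconv to Eos- Tregs (adjusted p = 1.83e-04), and the whole span was 2.82-fold (adjusted p = 7.00e-07). The step between the Treg groups no longer passed when the libraries numbered 1 and 2 were left out of all groups (log2 0.48, adjusted p = 0.0569). B cells also make Ltb, and 10 B cell markers, led by Ighm, summed to 1399 to 1835 CPM in Eos+ Tregs, 177 to 474 CPM in Eos- Tregs and 229 to 405 CPM in Tconv. Without Ighm, the other 9 summed to 59.4 to 179, 4.46 to 30.4 and 11.6 to 61.8 CPM. Of the 9 B cell markers tested, 4 were higher in Eos+ than in Eos- Tregs, where 9.82% of all genes were higher. Against Tconv, 3 were higher in Eos+ Tregs (17.3% of all genes) and 0 in Eos- Tregs (8.76% of all genes). None of the 10 was at 0 throughout a group, and their part in the Ltb difference was not tested.

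Tnf encodes TNF itself, an inflammatory cytokine that signals through TNFR1 and TNFR2, and here it did not follow its neighbours. It was 17.7, 8.81, 12.0 and 11.3 CPM in Eos+ Tregs, 9.43, 4.30, 3.73 and 5.17 CPM in Eos- Tregs and 12.9, 7.03, 10.3 and 8.83 CPM in Tconv. Library 1 was the highest in each group, and Eos- Tregs were the lowest group within every library number. Tnf was 2.21-fold higher in Eos+ than in Eos- Tregs (adjusted p = 0.0261 by edgeR). That call was lost without Eos+ Treg library 1 or Eos- Treg library 2, 3 or 4 (adjusted p = 0.0631 to 0.08), and without number 2, 3 or 4 in all groups (adjusted p = 0.0780 to 0.156). Eos+ Tregs and Tconv overlapped and did not differ past the threshold (log2 0.35, adjusted p = 0.451). Eos- Tregs against Tconv gave a log2 difference of -0.79 (adjusted p = 0.117), and of -0.84 with the replicate number as a block (adjusted p = 0.0107). Without the Treg libraries numbered 1, that difference was -1.14 (adjusted p = 0.00734).

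Tnfsf14 (ENSMUSG00000005824.7, chromosome 17, 57189492 to 57194177) encodes LIGHT, which shares the lymphotoxin beta receptor with lymphotoxin and also binds HVEM (Tnfrsf14) on lymphocytes. It was a low and variable transcript, at 16.2, 13.8, 7.14 and 3.20 CPM in Eos+ Tregs, 2.70, 0.0570, 0.0691 and 0.373 CPM in Eos- Tregs and 4.38, 2.13, 4.04 and 3.42 CPM in Tconv. All Eos+ Treg libraries lay above all Eos- Treg libraries, with 3.20 CPM against 2.70 CPM at the nearest. The 4 Eos- Treg libraries held 82 counts in all, 65 of them in library 1. The fitted difference between the Treg groups was 13.0-fold, with a 95% interval of 1.62 to 5.78 on the log2 scale (adjusted p = 0.0189 by edgeR). It was 5.85 on that scale without Eos- Treg library 1 (adjusted p = 3.64e-04), 5.54 without both Treg libraries numbered 1 (adjusted p = 8.21e-04), and did not pass without Eos- Treg library 4 (adjusted p = 0.054), without number 2, 3 or 4 in all groups (adjusted p = 0.0628 to 0.105) or when Tconv stayed out of the fit (adjusted p = 0.0505).

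Against Tconv, Tnfsf14 did not pass in either Treg group. The log2 differences were 1.53 for Eos+ Tregs (adjusted p = 0.213) and -2.17 for Eos- Tregs (adjusted p = 0.141), by edgeR. With only Eos+ Tregs and Tconv in the fit, the first had an adjusted p of 0.0294. For Eos- Tregs, the difference was -2.97 with the replicate number as a block (adjusted p = 0.0288), -4.33 without Eos- Treg library 1 (adjusted p = 0.00167) and also -4.33 without both Treg libraries numbered 1 (adjusted p = 0.00168). Across the 12 libraries, Tnfsf14 and Tnf had a Pearson r of 0.91 on log2 CPM, and of 0.76 after each group's mean was removed. The points share library, depth and number, and the values are a description.

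Tnfsf11 (ENSMUSG00000022015.8, chromosome 14, 78277445 to 78308043) encodes RANKL, the ligand that induces Aire-expressing medullary epithelial cells and, in bone, osteoclasts. It was 47.7, 42.2, 48.0 and 24.1 CPM in Eos+ Tregs, 24.6, 28.8, 25.5 and 19.0 CPM in Eos- Tregs and 36.4, 29.5, 32.7 and 37.4 CPM in Tconv. Eos+ Treg library 4 fell among the Eos- Tregs, while the other 3 Eos+ Treg libraries were the highest of all 12. Tnfsf11 was 1.65-fold higher in Eos+ than in Eos- Tregs (adjusted p = 0.0273 by edgeR), a call lost without Eos+ Treg library 1, 2 or 3 or without Eos- Treg library 3 or 4 (adjusted p = 0.0559 to 0.0791), and without number 1, 2 or 3 in all groups (adjusted p = 0.0918 to 0.168). Tconv lay above every Eos- Treg library but did not differ past the threshold (log2 -0.47 for Eos- Tregs minus Tconv, adjusted p = 0.147). Eos+ Tregs differed from Tconv by 0.25 on the log2 scale (adjusted p = 0.394), by 0.44 without Eos+ Treg library 4 (adjusted p = 0.044) and by 0.50 without number 4 in all groups (adjusted p = 0.0183). Lymphoid tissue inducer cells are another thymic source of RANKL. The 10 markers of inducer and innate lymphoid cells summed to 398 to 543 CPM in Eos+ Tregs, 275 to 332 CPM in Eos- Tregs and 274 to 396 CPM in Tconv, led by Tnfrsf25 in both Treg groups. Of the 7 tested, 3 were higher in Eos+ than in Eos- Tregs, where 9.82% of all genes were higher. Against Tconv, 4 were higher and 1 lower in Eos+ Tregs (17.3% and 13% of all genes). In Eos- Tregs, 3 were higher and 1 lower than in Tconv (8.76% and 5.89% of all genes). Il22 was at 0 in Eos+ Tregs, Il23r in Eos- Tregs and Ncr1 in Tconv. Their part in the Tnfsf11 values was not tested.

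Cd40lg (ENSMUSG00000031132.1, chromosome X, 57212143 to 57224042) encodes CD40 ligand, the helper T cell signal to CD40 on B cells, dendritic cells and medullary epithelium. It was 23.6, 12.0, 14.8 and 8.77 CPM in Eos+ Tregs, 49.7, 35.3, 20.4 and 22.9 CPM in Eos- Tregs and 100.3, 108.4, 99.4 and 126.4 CPM in Tconv. Every Tconv library exceeded every Treg library, and the Treg groups overlapped only through Eos+ Treg library 1. Within each library number, Eos+ Tregs were the lowest, Eos- Tregs in between and Tconv the highest. Cd40lg was 7.35-fold lower in Eos+ Tregs than in Tconv (log2 -2.88, SE 0.32, adjusted p = 2.41e-05 by edgeR) and 3.39-fold lower in Eos- Tregs (adjusted p = 0.00212).

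The difference in Cd40lg between the Treg groups was smaller and less stable, at 2.17-fold lower in Eos+ Tregs (adjusted p = 0.0258 by edgeR). It did not pass without Eos- Treg library 1 or 2 or without Eos+ Treg library 2, 3 or 4 (adjusted p = 0.0548 to 0.0766), nor without number 2, 3 or 4 in all groups (adjusted p = 0.0583 to 0.179). Within each Treg group, Cd40lg was highest in library 1, where markers of double-positive thymocytes, the CD4+CD8+ precursor stage, were also highest. The 9 markers, led by Dntt or Cd8b1, summed to 397 CPM in Eos+ Treg library 1 against 68.9 to 98.9 CPM in the others of that group. In Eos- Tregs they summed to 420, 203, 56.5 and 57.9 CPM, and in Tconv to 344, 364, 115 and 138 CPM. None of the 9 was at 0 throughout a group, and their part in the Cd40lg values was not tested.

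Tnfsf8 (ENSMUSG00000028362.2, chromosome 4, 63831308 to 63861347) encodes the ligand of CD30, a receptor of activated T cells, and it was almost the mirror image of Cd40lg. It was 166, 195, 127 and 130.4 CPM in Eos+ Tregs, 59.4, 44.6, 55.7 and 56.5 CPM in Eos- Tregs and 23.0, 21.7, 21.8 and 16.4 CPM in Tconv. No library of one group fell into another. Tnfsf8 was 7.46-fold higher in Eos+ Tregs than in Tconv (log2 2.90, SE 0.16, adjusted p = 8.55e-08 by edgeR), 2.61-fold higher in Eos- Tregs than in Tconv (adjusted p = 8.79e-05) and 2.86-fold higher in Eos+ than in Eos- Tregs (adjusted p = 4.83e-05). All 3 calls held in each of the 23 other fits tried per comparison. Across the 12 libraries, Cd40lg and Tnfsf8 had a Pearson r of -0.92 on log2 CPM, which was 0.03 once each group's mean was removed.

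Tnfsf10 (ENSMUSG00000039304.11, chromosome 3, 27317028 to 27342427) encodes TRAIL, which triggers caspase-dependent death through its death receptor. It separated Eos+ Tregs from both other populations, with 31.1, 31.7, 35.9 and 24.7 CPM against 11.1, 13.2, 11.9 and 9.51 CPM in Eos- Tregs and 13.2, 11.4, 13.5 and 11.9 CPM in Tconv. The lowest Eos+ Treg library lay well above all 8 others, which overlapped one another. It was 2.70-fold higher in Eos+ than in Eos- Tregs (adjusted p = 5.21e-05 by edgeR) and 2.47-fold higher than in Tconv (adjusted p = 2.57e-05), and both calls held in each of the 23 other fits. Eos- Tregs and Tconv differed by -0.13 on the log2 scale, with a 95% interval of -0.45 to 0.19 (adjusted p = 0.626).

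Fasl (ENSMUSG00000000817.10, chromosome 1, 161780689 to 161788495) encodes Fas ligand, by which cytotoxic and activated T cells kill cells that carry Fas. It was 4.83, 2.81, 2.36 and 3.49 CPM in Eos+ Tregs, 9.84, 2.02, 1.73 and 3.16 CPM in Eos- Tregs and 13.3, 13.1, 18.6 and 42.9 CPM in Tconv. Every Tconv library was above every Treg library. Tconv library 4 was the highest by far, and Eos- Treg library 1 came nearest to Tconv. Fasl was 6.52-fold lower in Eos+ Tregs than in Tconv (log2 -2.70, SE 0.57, adjusted p = 0.00299 by edgeR), and between -3.40 and -2.15 in the 23 other fits, each of which called it. It was 5.28-fold lower in Eos- Tregs (log2 -2.40, adjusted p = 0.0125). That difference was -3.24 without Eos- Treg library 1 (adjusted p = 6.35e-04), and did not pass without the 3 libraries numbered 2, 3 or 4 (adjusted p = 0.0645 to 0.138). The Treg groups were not told apart (log2 -0.30, 95% interval -1.49 to 0.88, adjusted p = 0.772), and the sign turned to 0.53 without Eos- Treg library 1 and to 0.32 without both Treg libraries numbered 1.

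Markers of cytotoxic cells went with Fasl only in part. The 11 markers of NK and CD8 T cells summed to 313, 171, 170.2 and 210.0 CPM in Eos+ Tregs, 297, 146, 79.4 and 102 CPM in Eos- Tregs and 351, 286, 247 and 550.2 CPM in Tconv, so Tconv library 4 and the Treg libraries numbered 1 were high in these as in Fasl. Nkg7, the highest of them in Eos+ Tregs and Tconv, was 188 CPM in Tconv library 4. By group it did not follow Fasl, with means of 133, 48.4 and 101 CPM in Eos+ Tregs, Eos- Tregs and Tconv. It was 2.75-fold higher in Eos+ than in Eos- Tregs (adjusted p = 0.0124 by edgeR). Of the 10 tested, 4 were lower in Eos+ Tregs than in Tconv (13% of all genes) and 2 in Eos- Tregs (5.89% of all genes). In either, 0 were higher (17.3% and 8.76% of all genes). Between the Treg groups, Nkg7 was the only 1 of the 10 called, near the 9.82% of all genes that were higher there. Cd8a and Cd8b1 are also among the double-positive markers. Cd8b1 led in Eos- Tregs, where the sum without it was 56.2 to 191 CPM. Ncr1 was at 0 in Tconv. The 6 measured markers of gamma-delta and NKT cells, led by Trdc, summed to 58.6 to 99.4 CPM in Tconv, to 15.7 to 69.7 CPM in Eos+ Tregs and to 21.5 to 84.7 CPM in Eos- Tregs, with none at 0. Their part in the Fasl difference was not tested.

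**Figure D3:**
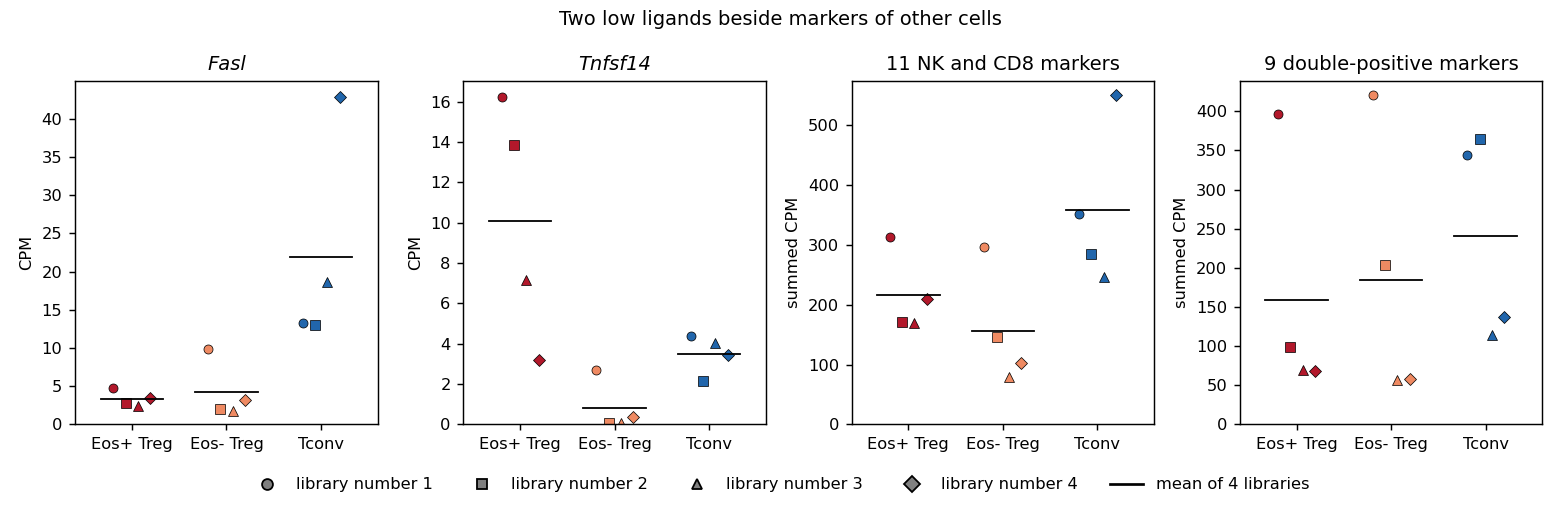
Fasl and Tnfsf14 in CPM beside the summed CPM of 11 NK and CD8 T cell markers and of 9 double-positive thymocyte markers, in each library, with bars for the mean of 4. Tconv library 4 is highest for both Fasl and the NK and CD8 markers, and the Treg libraries numbered 1 are the highest of their groups for both marker sums.

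Levels of different ligands were compared per length, as CPM per kb of annotated exon. On this scale Ltb was the most abundant ligand everywhere, at 1137 ± 144, 732 ± 23.1 and 404 ± 50.5 from Eos+ Tregs over Eos- Tregs to Tconv (SD, n = 4). Its level per kb exceeded that of 99.9%, 99.8% and 99.6% of the genes tested in those groups. Ltb made up 85.6% to 87.8% of the summed per-kb level of the 9 ligands in Eos+ Tregs, 81.1% to 84.7% in Eos- Tregs and 71.4% to 74.9% in Tconv. What came next differed by population. In Eos+ Tregs, the order per kb was Lta at 82.0, Tnfsf8 at 40.6 and Tnfsf11 at 18.1, and the ranges of Ltb, Lta, Tnfsf8 and Tnfsf11 did not overlap one another. Below Tnfsf11, which overlapped Cd40lg, came Cd40lg, Tnf, Tnfsf10, Tnfsf14 and Fasl, each overlapping the next.

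In Eos- Tregs, Lta at 90.0 per kb was followed by Cd40lg at 25.7, Tnfsf8 at 14.2 and Tnfsf11 at 11.0, of which the last pair overlapped. In Tconv, Cd40lg was second at 86.9 per kb, making up 13.7% to 17.8% of the sum, ahead of Lta at 21.7 and Tnfsf11 at 15.2. There Tnfsf11, Fasl, Tnf and Tnfsf8 overlapped as neighbours. The per-kb ratio of Ltb to Lta was 12.3 to 15.9 in Eos+ Tregs, 7.22 to 8.62 in Eos- Tregs and 15.9 to 24.6 in Tconv, so it was lowest in Eos- Tregs. The per-kb ratio of Cd40lg to Tnfsf8 was 0.187 to 0.431 in Eos+ Tregs, 1.12 to 2.55 in Eos- Tregs and 13.3 to 23.4 in Tconv, with no overlap between groups.

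**Figure D4:**
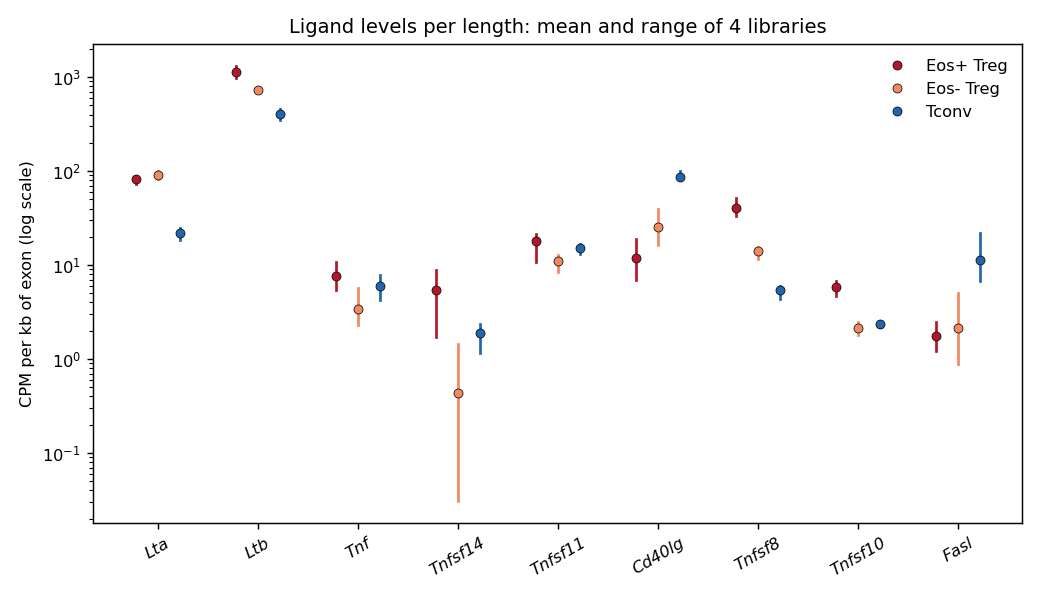
Level of each ligand in CPM per kb of exon on a log axis, with points for the mean and lines for the range of 4 libraries. Ltb lies above all others in each population, Cd40lg is second in Tconv at 86.9, and Tnfsf14 in Eos- Tregs is lowest at 0.433.

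The genes whose log2 CPM over the 12 libraries was most like that of 4 members were sought among 8578 genes with a mean of at least 10 CPM. Closest to Cd40lg was Rcbtb2 (Pearson r = 0.99), at 49.1 ± 8.81, 61.9 ± 7.20 and 96.8 ± 7.13 CPM in Eos+ Tregs, Eos- Tregs and Tconv, then Idh2 and Chl1 (both 0.99). Closest to Tnfsf8 were Rabgap1l, Sytl1 and Mif4gd (each 0.98), and closest to Ltb were Syt11, Nt5e and Spry1 (each 0.99), all with means that stepped down from Eos+ Tregs to Tconv, as those of Syt11 did from 201 to 87.5 to 23.1 CPM. Tnfsf11 had a looser match, with Ddx20 at 0.92, Cchcr1 at 0.91 and Pacsin2 at 0.90. Among members, Tnfsf8 and Ltb had an r of 0.96. All points share libraries and the 3 group means, and these values carry no test.

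Receptors of the 9 ligands were also read in the same cells. Of 12 receptors and decoys, 9 were tested, and 5 rose and 1 fell in Eos+ against Eos- Tregs where 9.82% of all genes rose and 6.45% fell, with a median log2 difference of 0.89 against 0.00 for all genes. Tnfrsf1b, or TNFR2, the TNF receptor of Tregs, was 804 ± 119, 434 ± 89.7 and 163 ± 28.0 CPM in Eos+ Tregs, Eos- Tregs and Tconv, 1.85-fold higher in Eos+ than in Eos- Tregs (adjusted p = 0.00271 by edgeR) and 2.65-fold higher in Eos- Tregs than in Tconv (adjusted p = 1.31e-04). Tnfrsf1a, the death-domain receptor of TNF, ran the other way, at 15.6 ± 1.90, 22.8 ± 3.95 and 35.3 ± 3.48 CPM, and was 2.27-fold lower in Eos+ Tregs than in Tconv (adjusted p = 5.51e-05). Its 1.47-fold difference between the Treg groups (adjusted p = 0.0203) was lost without Eos+ Treg library 2 or 4, Eos- Treg library 3 (adjusted p = 0.0511 to 0.0611), both Treg libraries numbered 1 (adjusted p = 0.0599) or any 1 number in all groups (adjusted p = 0.0512 to 0.0749).

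The receptor of Tnfsf8 was high where its ligand was. Tnfrsf8, or CD30, was 39.4, 24.6, 35.2 and 22.8 CPM in Eos+ Tregs, 2.20, 0.826, 0.622 and 2.15 CPM in Eos- Tregs and at most 1.504 CPM in Tconv. It was 52.6-fold higher in Eos+ Tregs than in Tconv (adjusted p = 7.14e-05 by edgeR), and the lowest Eos+ Treg library lay far above every other population. The receptor of Cd40lg, Cd40, was 12.8, 9.19, 7.81 and 6.57 CPM in Eos+ Tregs against at most 0.748 CPM in Eos- Tregs and 1.93 CPM in Tconv, 25.7-fold higher in Eos+ than in Eos- Tregs (adjusted p = 2.13e-04) and 6.93-fold higher than in Tconv (adjusted p = 0.00137). It was 3.71-fold lower in Eos- Tregs than in Tconv, as Cd40lg was also lower there, though the Cd40 groups overlapped (adjusted p = 0.0349). That call was lost without Tconv library 1, 3 or 4 or Eos- Treg library 2, 3 or 4 (adjusted p = 0.0554 to 0.0945), without number 2, 3 or 4 in all groups (adjusted p = 0.0675 to 0.217), with only the 2 groups in the fit (adjusted p = 0.0952) and with limma-voom (adjusted p = 0.112). Cd40 is itself a gene of B cells and dendritic cells, and the B cell markers given beside Ltb moved with it. The 12 markers of dendritic cells and macrophages, led by Cst3, summed to 112 to 221 CPM in Eos+ Tregs, 64.1 to 176 CPM in Eos- Tregs and 80.2 to 119 CPM in Tconv, with none at 0 throughout a group. The part of either cell type in the Cd40 difference was not tested.

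Fas, the receptor of Fas ligand, was 159 ± 11.9 CPM in Eos+ Tregs, 159 ± 16.9 CPM in Eos- Tregs and 75.4 ± 10.1 CPM in Tconv. It was higher in both Treg groups than in Tconv (2.10-fold each, adjusted p = 8.80e-06 and 3.18e-05 by edgeR), the reverse of its ligand, and differed by 0.00 on the log2 scale between the Treg groups (SE 0.11, adjusted p = 0.995). For TRAIL, the death receptor Tnfrsf10b was 3.41 ± 0.626, 0.983 ± 0.140 and 1.40 ± 0.479 CPM, 3.45-fold higher in Eos+ than in Eos- Tregs (adjusted p = 0.00322, and 0.113 without the libraries numbered 1 and 2). The decoy Tnfrsf22 was 31.9 ± 4.36, 17.1 ± 1.37 and 14.0 ± 2.52 CPM, 1.87-fold higher in the same comparison (adjusted p = 0.00160). The second decoy, Tnfrsf23, passed in no comparison (adjusted p = 0.0756 to 0.716).

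Receptors through which the lymphotoxins, LIGHT and RANKL reach stromal cells were low or at 0 in these lymphocytes. Ltbr, the lymphotoxin beta receptor, held 19 counts over the Eos+ Treg libraries, 0 over the Eos- Treg libraries and 10 over Tconv. Tnfrsf11a, the RANKL receptor, averaged 0.443, 0.0778 and 0.382 CPM, and its decoy Tnfrsf11b held 8 counts in Eos+ Tregs and 0 elsewhere. These 3 did not pass the filter on low counts and were not tested. Tnfrsf14, or HVEM, was 1.71 ± 0.395, 1.29 ± 0.557 and 1.89 ± 0.693 CPM and passed in no comparison (adjusted p = 0.45 to 0.831). Markers of medullary and cortical epithelial cells, the usual bearers of these receptors, were read in the same libraries. The 9 epithelial markers, led by Epcam, summed to 23.5 to 39.4 CPM in Eos+ Tregs, 10.9 to 15.6 CPM in Eos- Tregs and 6.28 to 9.02 CPM in Tconv, and to at most 3.27 CPM in any library without Epcam. Of the 3 tested, 2 (Epcam and Aire) were higher in Eos+ than in Eos- Tregs, where 9.82% of all genes were higher. The other was not called. Epcam was 30.4 ± 6.75, 12.7 ± 2.35 and 6.93 ± 0.658 CPM in Eos+ Tregs, Eos- Tregs and Tconv, 2.39-fold higher in Eos+ than in Eos- Tregs (adjusted p = 6.52e-04 by edgeR) and 1.84-fold higher in Eos- Tregs than in Tconv (adjusted p = 0.00700). Aire held 215 counts over the Eos+ Treg libraries, 3 over the Eos- Treg libraries and 27 over Tconv, all 27 in 1 library. By edgeR, its adjusted p was 0.0299 between the Treg groups and 0.137 for Eos+ Tregs against Tconv. Aire passed the filter on low counts mainly through its Eos+ Treg libraries. A call of higher was largely set by that filter, so the count of 2 is no test of these markers. The Aire call was lost without Eos+ Treg library 2 or 3, without any 1 Eos- Treg library (adjusted p = 0.0521 to 0.0817), without number 2, 3 or 4 in all groups (adjusted p = 0.0648 to 0.135) or without both Treg libraries numbered 1 (adjusted p = 0.0736). Krt5 and Psmb11 held 21 and 37 counts in Eos+ Tregs. Both were at 0 in all Eos- Treg libraries, as were Krt14 and Foxn1, and Cldn3 was at 0 in every library. The part of epithelial transcripts in the ligand and receptor values was not tested.

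**Figure D5:**
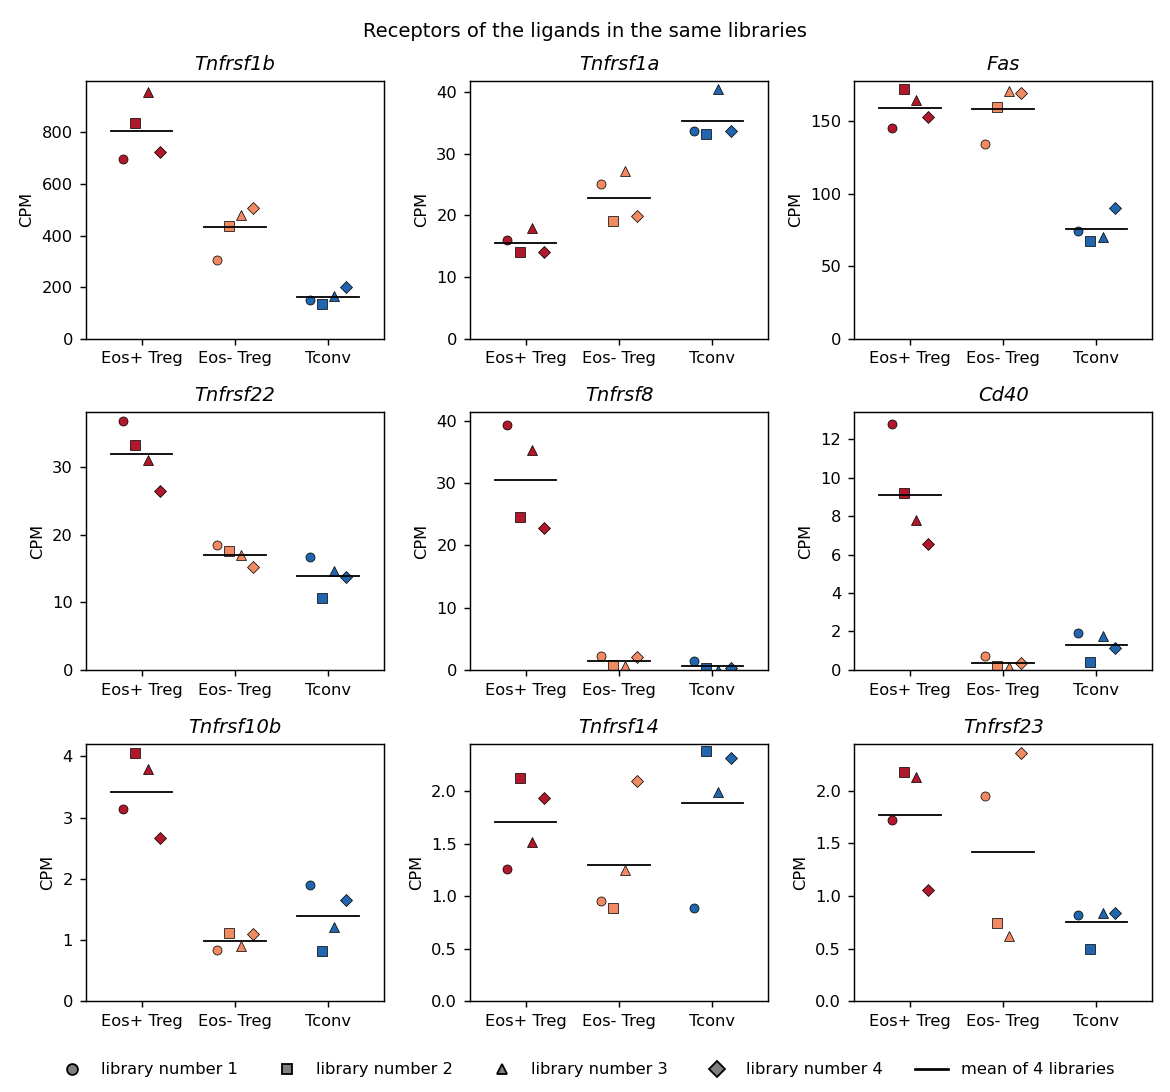
Level of the 9 tested receptors and decoys in every library, in CPM on linear axes from 0, with the symbol giving the library number and the bar the mean of 4. Tnfrsf1b falls and Tnfrsf1a rises from Eos+ Tregs to Tconv, Tnfrsf8 and Cd40 are highest in the 4 Eos+ Treg libraries, and Fas is alike in both Treg groups.

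Of 9 further ligands of the superfamily, 5 were tested, and 3 were higher in Eos+ Tregs than in both other populations, Tnfsf15, Cd70 and Tnfsf9. Of all genes, 9.82% were higher than in Eos- Tregs and 17.3% higher than in Tconv. Tnfsf15 and Cd70 passed the filter on low counts only through their Eos+ Treg libraries. A call of higher was largely set by that filter, so the count of 3 is no test of these ligands. Tnfsf15, or TL1A, held 275 counts in Eos+ Tregs (2.01 ± 1.10 CPM) and 0 in Eos- Tregs, at least 82.4-fold higher when 3 counts over the group are set as the floor (adjusted p = 0.00131 by edgeR). Cd70, the ligand of CD27, was 1.82 ± 0.796 CPM in Eos+ Tregs, 0.0714 ± 0.0945 CPM in Eos- Tregs and 0.00657 ± 0.0131 CPM in Tconv (adjusted p = 0.00703 and 5.09e-04 for Eos+ Tregs against each). The first of these was 0.0662 without number 4 in all groups. Tnfsf9, the ligand of 4-1BB, was 11.5 ± 2.04, 5.37 ± 2.06 and 4.77 ± 1.42 CPM, and its 2.15-fold difference between the Treg groups (adjusted p = 0.0192) was lost without Eos- Treg library 2 or 4 or Eos+ Treg library 3 (adjusted p = 0.0585 to 0.0592) or without both Treg libraries numbered 1 (adjusted p = 0.0548), and without number 1, 2 or 4 in all groups (adjusted p = 0.0620 to 0.131). Tnfsf9 shares 192 exon bases with the predicted gene Gm11110, which reached 24.2 CPM, so its reads are less certain. Tnfsf4 and Tnfsf13b passed in no comparison. In Eos- Tregs against Tconv, 0 of the 5 passed by edgeR, DESeq2 or limma-voom, and 1 (Cd70) had an unadjusted p under 0.05 by edgeR. Tnfsf15 and Cd70 were near 0 CPM in both of those groups, so they could hardly pass there.

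Downstream of the receptors, 23 adaptors, kinases and NF-kB genes were tested. Against Tconv, 12 rose and 1 fell in Eos+ Tregs, where 17.3% of all genes rose and 13% fell, and 11 rose and 0 fell in Eos- Tregs, where 8.76% of all genes rose and 5.89% fell. Traf1, an NF-kB-induced adaptor, was 467 ± 44.1, 279 ± 49.5 and 114 ± 11.0 CPM in Eos+ Tregs, Eos- Tregs and Tconv, and Birc3, a ubiquitin ligase of the same complexes, was 195 ± 12.3, 263 ± 22.7 and 123 ± 12.9 CPM. Between the Treg groups, 4 were higher and 4 lower in Eos+ Tregs, against 9.82% and 6.45% of all genes. Traf1 (1.68-fold), Traf5 (1.66-fold) and Nfkb2 (1.65-fold) were among the higher (adjusted p = 0.00142, 0.00963 and 0.00176 by edgeR). Casp8, the caspase that death receptors activate, was 1.53-fold lower at 248 ± 13.9 against 378 ± 17.6 CPM (adjusted p = 1.05e-04), and Birc3 was 1.35-fold lower (adjusted p = 0.00616). Traf5 no longer passed without number 2 or 3 in all groups (adjusted p = 0.0554 and 0.0519), nor Birc3 without number 3 (adjusted p = 0.0668). Nfkb2 shares exon bases with AC114539.1 and Psd and is less certain.

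Genes that control ligand transcripts or shedding were examined from 3 further lists. Of 18 transcription factors that induce such ligands in T cells, 4 were higher in Eos+ than in Eos- Tregs and 0 lower: Batf (2.71-fold, adjusted p = 1.05e-05 by edgeR), Irf4 (1.88-fold, adjusted p = 0.00963), Jun (1.69-fold, adjusted p = 0.00720) and Nfatc1 (1.32-fold, adjusted p = 0.00415). Of all genes, 9.82% were higher and 6.45% lower there. Irf4 no longer passed without number 3 in all groups (adjusted p = 0.115), nor Jun without number 2 or 3 (adjusted p = 0.0967 and 0.0557), nor Nfatc1 without the libraries numbered 1 and 2 (adjusted p = 0.103). Against Tconv, Eos+ Tregs had 8 higher and 1 lower, where 30.3% of all genes passed, and Eos- Tregs 4 higher and 1 lower, where 14.6% passed. Rel, an NF-kB subunit, was 143 ± 55.5, 147 ± 42.7 and 46.8 ± 6.35 CPM in Eos+ Tregs, Eos- Tregs and Tconv, alike in both Treg groups as Lta was. The lower one in both was Tbx21, or T-bet, a factor of cytotoxic and Th1 cells, at 7.31 ± 2.11, 5.08 ± 4.21 and 23.97 ± 7.43 CPM. In Eos- Tregs its call was lost without number 4 in all groups (adjusted p = 0.0678). Its highest library was Tconv library 4, at 34.5 CPM, which was also highest in Fasl.

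Of 12 genes of cytokine mRNA decay, 1 was higher and 1 lower in Eos+ than in Eos- Tregs, 3 were higher and 3 lower in Eos+ Tregs than in Tconv, and 3 were higher and 1 lower in Eos- Tregs than in Tconv. Over all genes, 16.3%, 30.3% and 14.6% passed in these comparisons, so the 2 of 12 between the Treg groups were near the share of all genes. Zc3h12d, of the Regnase family, was 109 ± 20.9, 59.6 ± 12.1 and 22.3 ± 3.08 CPM and was higher at each step (1.84-fold between the Treg groups, adjusted p = 0.00333 by edgeR). Of 7 tested shedding genes, 0 were higher and 1 lower in each comparison, no more than the shares of all genes just given. Adam17, the protease that releases TNF, was 127 ± 10.3, 124 ± 13.8 and 115 ± 6.36 CPM (adjusted p = 0.275 to 0.862). Frmd8, which stabilises the Adam17 complex, was 1.34-fold lower in Eos+ than in Eos- Tregs at 353 ± 18.6 against 474 ± 27.6 CPM (adjusted p = 0.00264, and 0.0980 without the libraries numbered 1 and 2).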

How the data were processed

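RNA from 12 libraries of sorted thymic CD4+ T cells was sequenced after template-switching cDNA synthesis and tagmentation, per the labels' protocols. Such libraries carry no strand information. The authors deposited expected counts per gene, which RSEM estimates, unscaled for depth or length. The submitters' processing notes name cutadapt 1.18, STAR 2.7.0f, RSEM 1.3.1 and the mm10 build. Settings and annotation are not given in the sources used here. Values that were not whole made up 9.54% to 10.7% of each library. All gene IDs matched GENCODE M21, the source of positions and exon lengths, and no member shares exon bases with another annotated gene.

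Rounded counts were tested with edgeR 4.0.16 in R 4.3.3 (quasi-likelihood F test, TMM, filterByExpr, 1 mean per group over 12 libraries), two-sided, with Benjamini-Hochberg adjustment per comparison over 15361 genes. The procedure was tested on simulated data. Alternatives were other scalings and filters, DESeq2 1.42.0, limma-voom 3.58.1, a 1.5-fold test, a block by library number, and fits without single libraries or numbers. The fits without numbers 1 and 2, and without both Treg libraries numbered 1, were chosen after seeing the data. Floors cover counting error only.

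The ligands and gene lists were chosen with earlier results of these data known. Named were all 9 ligands and their receptors, and the 3 genes most like each of 4 ligands. Up to 5 genes per list and comparison could be named, those with the smallest p among called genes whose groups do not overlap. The top marker of each list and those at 0 could also be named. Not every gene that these rules allow is named. Tnfsf4, Tnfsf13b, Adam17 and Aire, and Ddx3y and Xist as a check of sex, fall outside these rules and were chosen after their values were seen. The Treg markers Foxp3 and Ikzf4 also fall outside them. Library names carry an identifier per number, and the labels do not say what it marks. Same-numbered libraries deviated from group means together (r = 0.14 to 0.32 in 12 of 12 pairs, at most 0.07 between other numbers). The main fit did not pair them, and only the fit with a block by library number did. All 18 pairs of libraries within a group differed beyond sampling noise.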

Additional observations from a re-analysis of the deposited data

Results flagged for a closer look

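Among 27 groups of 4 libraries, 1 for each ligand and population, 1 held a library far from the others. Tnfsf14 in Eos- Treg library 1 was 2.70 CPM, while the other Eos- Treg libraries lay between 0.0570 and 0.373 CPM. The gap to the nearest library was 0.88 of the range of the group, above the critical value of 0.829 of Dixon's test. Chance flags about 1 in 20 groups, so 1 of 27 is near what chance gives. The same library held the least Foxp3 of all Treg libraries and, among Eos- Tregs, the most Fasl, Tnf and Cd40lg.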

How the results depend on the processing

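All genes called in Eos+ against Eos- Tregs (2500) numbered 778 in a test against a 1.5-fold change, 1208 to 2936 with single libraries or library numbers left out (lowest without numbers 2 and 3) and 972 without the libraries numbered 1 and 2. In Eos+ Tregs against Tconv (4655) these counts were 1854, 3031 to 4377 and 2352, and in Eos- Tregs against Tconv (2249) 513, 1081 to 2884 and 1401. Ligands called in Eos+ against Eos- Tregs (7) numbered 2 in the 1.5-fold test (Tnfsf8 and Tnfsf10), 3 with only the 2 groups compared, 3 to 6 with libraries left out and 4 without the libraries numbered 1 and 2. In Eos- Tregs against Tconv (5) they numbered 3 in the 1.5-fold test and 4 to 7 with libraries left out, and in Eos+ Tregs against Tconv (6) 6 to 7 in all alternatives. Fits with libraries left out have fewer samples.

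The sign of Fasl between the Treg groups reversed with limma-voom (0.081), without library number 1 in all groups (0.32), without Eos- Treg library 1 (0.53, where leaving out other libraries gave values down to -0.56), without the libraries numbered 1 and 2 (0.24) and without both Treg libraries numbered 1 (0.32), and passed in none of them. With the replicate block, 7, 6 and 7 ligands were called in the 3 comparisons, and the block changed no ligand call other than Tnf and Tnfsf14 in Eos- Tregs against Tconv. All genes called with the block numbered 3498, 5571 and 3300. DESeq2 and limma-voom made the same ligand counts of 7, 6 and 5. Scaling moved the median of all genes by under 0.1 on the log2 scale. Depth limits Tnfsf14 in Eos- Tregs, where the lowest library held 2 counts.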
